A study of Mus musculus with 6 samples.

Results

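The 10 genes described here encode enzymes and scaffolds that turn a living keratinocyte into a dead, cross-linked corneocyte. They are the transglutaminase genes Tgm1, Tgm3 and Tgm5, the protease genes Casp14, Asprv1, St14 and Prss8, the peptidylarginine deiminase gene Padi1, and the plakin genes Evpl and Ppl. They were chosen by gene name for their known function, with earlier results of these data known. Each matched a single row among the 35275 genes listed. Levels were measured by RNA-seq in the epithelial part of back skin from C57BL/6 mice, in 3 libraries of Il33-deficient animals, called IL-33 KO, and 3 libraries of wild-type animals, called WT. Mice of both genotypes had 0.25% dinitrofluorobenzene (DNFB), a contact allergen, in acetone and olive oil painted on the back 3 times a week for 22 days, so no untreated skin was compared. The sources used here give neither the way Il33 was inactivated nor the age or sex of the animals. Whether the numbered libraries are separate animals is not stated either, and the p-values then measure only spread between libraries, which may be technical.

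In the upper epidermis, transglutaminases join envelope proteins by isopeptide bonds between glutamine and lysine side chains, and the plakins envoplakin and periplakin form an early scaffold under the plasma membrane on which this cross-linking begins. Proteases cut precursors at defined steps: matriptase (St14) and prostasin (Prss8) act on the cell surface, while caspase-14 (Casp14) and the retroviral-like aspartic protease SASPase (Asprv1) act on filaggrin and its precursor in the outermost layers. Peptidylarginine deiminases convert arginine to citrulline in keratins and filaggrin, which loosens their packing. Several of these enzymes also work in the hair follicle, where the inner root sheath is hardened by deimination and cross-linking of trichohyalin.

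The 10 genes did not differ between the genotypes as a block. The late proteases Casp14 and Asprv1 had lower mean levels in IL-33 KO, all IL-33 KO libraries exceeded all WT libraries for St14 and Padi1, and the plakins were nearly level. In edgeR's quasi-likelihood test, 0 of the 10 genes had a Benjamini-Hochberg adjusted p under 0.05, where 0.0191% of the 15720 tested genes did (0.0127% higher and 0.00636% lower in IL-33 KO). At an unadjusted p under 0.05 there were 4 of 10, against 9.02% of all tested genes. St14 and Padi1 were the 2 higher ones, against 4.87% of all tested genes, and Casp14 and Asprv1 the 2 lower ones, against 4.15%. Groups without overlap were found for 2 of 10 higher, against 7.46% of all tested genes, and for 0 of 10 lower, against 6.47%. A log2 fold change of -0.5 or less was found for 2 of 10, against 5.77%. All 10 had enough counts to be tested in both genotypes, with 3546 counts over the 6 libraries for Padi1 at the low end and 244695 for Asprv1 at the high end. The log2 fold change of IL-33 KO over WT was below 0 for 6 of the 10 genes, against 52% of all tested genes. Its median was -0.20 over the 10 genes and -0.01 over all tested genes.

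The regions upstream of Casp14, Asprv1 and Padi1 are shown because the first pair had the lowest fold changes and nearly the same profile over the libraries, while Padi1 had the highest. Each run gives the 250 bases before the transcription start from RefSeq (GRCm38.p6, the assembly behind mm10), 5′ to 3′ on the gene's strand. Capitals mark CACCC or its reverse complement GGGTG, the core bound by Krüppel-like factors.
Casp14, chr10:78718294-78718543, minus strand: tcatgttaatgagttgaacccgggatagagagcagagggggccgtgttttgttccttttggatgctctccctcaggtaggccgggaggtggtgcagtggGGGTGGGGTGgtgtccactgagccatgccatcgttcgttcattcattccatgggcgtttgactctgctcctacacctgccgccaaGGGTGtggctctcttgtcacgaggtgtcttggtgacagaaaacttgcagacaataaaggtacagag
Asprv1, chr6:86627924-86628173, plus strand: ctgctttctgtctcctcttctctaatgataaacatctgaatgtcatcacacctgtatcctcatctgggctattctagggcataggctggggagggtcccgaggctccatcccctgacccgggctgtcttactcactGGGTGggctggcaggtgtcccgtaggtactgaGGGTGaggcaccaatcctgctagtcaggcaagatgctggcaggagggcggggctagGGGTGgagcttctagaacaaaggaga
Padi1, chr4:140845779-140846028, minus strand: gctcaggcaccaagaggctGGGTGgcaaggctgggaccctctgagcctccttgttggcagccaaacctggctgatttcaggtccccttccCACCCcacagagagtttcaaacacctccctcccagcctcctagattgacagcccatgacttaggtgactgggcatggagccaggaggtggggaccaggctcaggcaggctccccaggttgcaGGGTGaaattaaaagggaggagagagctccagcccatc
Each of these windows held 3 matches to CACCC on either strand, and 52.0% of 32851 such windows of the same length held at least 1. The share of windows with 3 or more was not counted. None of them held the AP-1 letters TGANTCA, the Grainyhead letters AACCNGTT or the TATA box letters TATAAA, on either strand, which 6.7%, 1.8% and 12.4% of all windows held. A match is a run of letters and not a measured binding site. Among the transglutaminase windows, both of Tgm1 held 1 match to CACCC each and that of Tgm3 held 2, so 5 of the 6 genes with a window had a match. The Tgm3 window also held TATAAA, 28 bases before the start, and that of Tgm5 held none of the 4 motifs. RefSeq windows were used for 6 of the 10 genes; those of St14, Prss8, Evpl and Ppl were not analysed here.

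Levels can be compared between genes in FPKM, which is scaled by gene length. Asprv1 was the most abundant of the 10, at 1165 ± 505 FPKM over the 6 libraries (SD), which placed it among the top 0.363% of tested genes. Casp14 followed at 208 ± 99.3 FPKM and stood above Tgm1 in all 6 libraries with no overlap of their ranges. Tgm1 (79.3 ± 17.1 FPKM) and Ppl (77.4 ± 9.68) could not be ordered, as Tgm1 was higher in 3 of 6 libraries. Evpl averaged 61.9 ± 7.88 FPKM and lay below Ppl in all 6 libraries, although their ranges overlapped. Then came St14 at 41.6 ± 9.25, Prss8 at 29.0 ± 5.27, Tgm3 at 22.1 ± 4.45 and Tgm5 at 21.8 ± 5.43 FPKM. St14 was above Prss8 in 4 of 6 libraries, and Tgm3 and Tgm5 were not separated, each being higher in 3 of 6. Padi1 was the least abundant at 6.95 ± 4.89 FPKM, among the top 46.5% of tested genes.

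**Figure D1:**
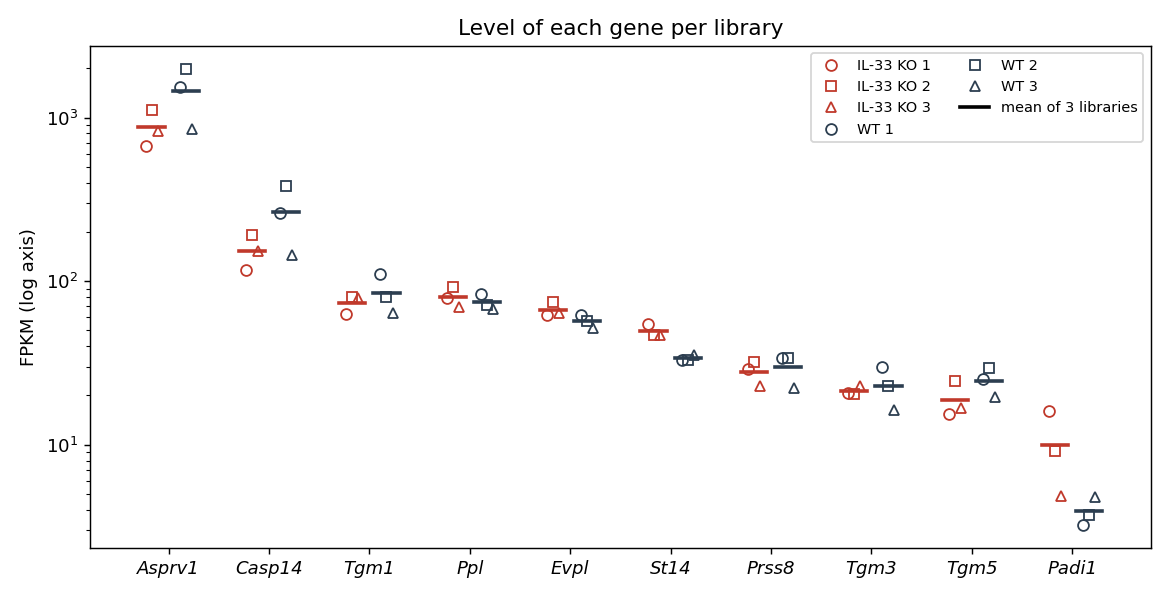
FPKM of the 10 genes on a log axis in each of the 3 IL-33 KO libraries (red, left of each pair) and the 3 WT libraries (dark, right), ordered by mean level, with bars at the mean of 3 libraries. Asprv1 lies between 666 and 1987 FPKM and Padi1 between 3.24 and 15.99 FPKM, and St14 is the gene whose genotypes stand apart with the least scatter.

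Transglutaminase 1 is membrane-anchored and is the main cross-linker of the envelope. Tgm1 (mm10 chr14:55700009-55713492, minus strand) had 168, 228 and 222 CPM (counts scaled to a common library total, adjusted by edgeR's TMM factors) in IL-33 KO 1, 2 and 3, against 337, 244 and 174 CPM in WT 1, 2 and 3. WT 1 was high and WT 3 lay within the range of the IL-33 KO libraries, so the genotypes overlapped. The log2 fold change was -0.29, with a 95% interval of -0.85 to 0.27 (adjusted p 0.729 in edgeR). Transglutaminase 3 is a soluble enzyme of epidermis and hair follicle. Tgm3 (mm10 chr2:130012349-130050399, plus strand) had 80.0, 84.4 and 93.0 CPM in the IL-33 KO libraries, against 132, 100.2 and 64.1 CPM in the WT libraries. The 3 IL-33 KO values lay inside the WT range, and the log2 fold change of -0.20 (95% interval -0.75 to 0.34, adjusted p 0.797 in edgeR) became 0.064 without WT 1. Transglutaminase 5 is the enzyme whose loss causes acral peeling skin in humans. Tgm5 (mm10 chr2:121046111-121085841, minus strand) had 37.4, 64.3 and 43.1 CPM in the IL-33 KO libraries, against 70.6, 81.4 and 49.0 CPM in the WT libraries. IL-33 KO 2 lay above WT 3, so these groups overlapped too, and the log2 fold change was -0.47 (95% interval -1.04 to 0.10, adjusted p 0.603 in edgeR).

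Tgm1 led the mix of the 3 transglutaminase transcripts in every library. Tgm1 made up 63.6%, 64.0% and 66.6% of their summed FPKM in IL-33 KO 1, 2 and 3, against 66.7%, 60.7% and 64.0% in WT 1, 2 and 3. Tgm3 made up 16.3% to 20.9% in the IL-33 KO libraries and 16.3% to 18.0% in the WT libraries. Tgm5 made up 14.1% to 19.7% in the IL-33 KO libraries and 15.3% to 22.1% in the WT libraries. All 3 shares overlapped between the genotypes.

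Caspase-14 is a caspase of cornifying keratinocytes that takes part in filaggrin breakdown and not in classical apoptosis. Casp14 (mm10 chr10:78711997-78718293, minus strand) had 255, 444 and 350.5 CPM in IL-33 KO 1, 2 and 3, against 650, 951 and 322 CPM in WT 1, 2 and 3. WT 1 and WT 2 were above every IL-33 KO library, and WT 3 was below IL-33 KO 2 and 3. The mean was 349.7 ± 94.5 CPM in IL-33 KO and 641 ± 315 CPM in WT (SD, n = 3 each), a log2 fold change of -0.87 (95% interval -1.74 to -0.01, unadjusted p 0.0478 and adjusted p 0.547 in edgeR). SASPase cleaves the linker of profilaggrin in mouse epidermis. Asprv1 (mm10 chr6:86628174-86629702, plus strand), with a single exon in the annotation, had 949, 1704 and 1255 CPM in the IL-33 KO libraries, against 2526, 3232 and 1250 CPM in the WT libraries. WT 1 and WT 2 were again above every IL-33 KO library, and WT 3 lay among the IL-33 KO libraries, nearly level with IL-33 KO 3. The mean was 1303 ± 380 CPM in IL-33 KO and 2336 ± 1005 CPM in WT, a log2 fold change of -0.84 (95% interval -1.67 to -0.01, unadjusted p 0.0474 and adjusted p 0.547 in edgeR).

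Single libraries moved these 2 values widely. Without WT 2 the log2 fold change was -0.47 for Casp14 and -0.53 for Asprv1, and without WT 3 it was -1.20 and -1.15 (adjusted p 0.0921 and 0.0984 in edgeR). Casp14 stayed at 17.1% to 18.3% of the Asprv1 FPKM in the IL-33 KO libraries and at 16.9% to 19.3% in the WT libraries, so the ratio of the pair differed far less than their levels. Levels of the suprabasal keratins Krt1 and Krt10, which fill the cytoplasm of differentiating keratinocytes, followed in part. Krt1 had 4537, 10076 and 9692 CPM in IL-33 KO 1, 2 and 3, against 11803, 15446 and 7825 CPM in WT 1, 2 and 3. Krt10 had 2677, 8024 and 7415 CPM in IL-33 KO 1, 2 and 3, against 7826, 10347 and 6127 CPM in WT 1, 2 and 3. Both were lowest in IL-33 KO 1 and highest in WT 2, but WT 1 lay below IL-33 KO 2 for Krt10. Relative to the mean log2 CPM of Krt1 and Krt10 in the same library, the log2 ratio of Casp14 was -4.24 ± 0.42 for the IL-33 KO libraries and -4.01 ± 0.37 for the WT libraries (SD, n = 3 each). That of Asprv1 was -2.34 ± 0.44 for the IL-33 KO libraries and -2.12 ± 0.30 for the WT libraries. The difference was thus -0.22 for both genes relative to these keratins, with overlapping libraries. It was -0.45 for Casp14 and -0.46 for Asprv1 without IL-33 KO 1, whose keratin level was the lowest. The ratio depends on the keratins chosen, as other suprabasal markers changed differently. The log2 fold change was -0.15 for Dsg1a, -0.36 for Dsc1 and 1.28 for Krt2, which averaged only 1.20 CPM in IL-33 KO and 0.496 CPM in WT. In bulk tissue, fewer cells of a type and less RNA per cell cannot be told apart.

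**Figure D2:**
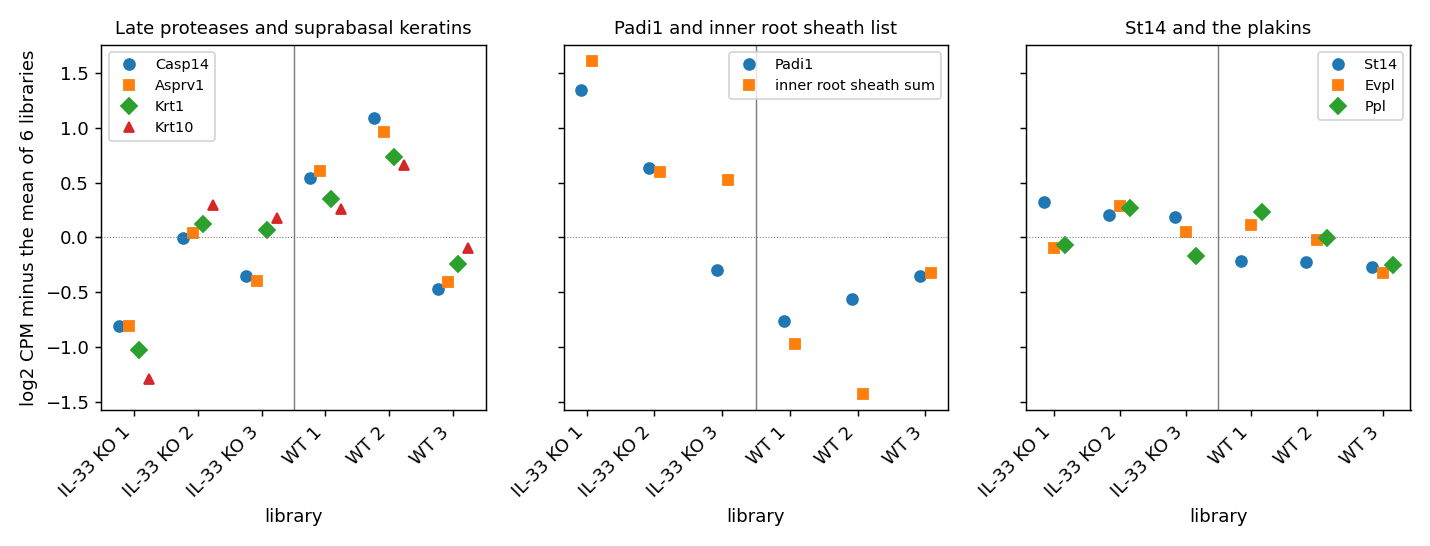
Log2 CPM minus the mean of the 6 libraries for Casp14, Asprv1, Krt1 and Krt10 (left), Padi1 and the summed level of the inner root sheath list (middle) and St14, Evpl and Ppl (right), with IL-33 KO libraries left of the grey line and WT libraries right of it. Casp14 and Asprv1 lie close together in every library and are high in WT 1 and WT 2, Padi1 is highest in IL-33 KO 1, and St14 is above its mean in all 3 IL-33 KO libraries and below it in all 3 WT libraries.

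Matriptase is a membrane-anchored serine protease that activates other proteases and is needed for epidermal barrier formation. St14 (mm10 chr9:31089402-31131853, minus strand) had 167, 153 and 151 CPM in IL-33 KO 1, 2 and 3, against 114, 114 and 110 CPM in WT 1, 2 and 3. The libraries of each genotype lay close together, and every IL-33 KO library was above every WT library. The mean was 157 ± 8.48 CPM in IL-33 KO and 113 ± 2.28 CPM in WT (SD, n = 3 each), 1.39-fold (95% interval 1.17 to 1.65), with a log2 fold change of 0.48 ± 0.11 (SE). Its unadjusted p of 0.00236 in edgeR was the 108th smallest of all tested genes, and the adjusted p was 0.343. In DESeq2, which called 1.26% of its tested genes, the adjusted p was 0.0257. By exact permutation of the library labels the two-sided p was 0.1, below which 3 against 3 cannot go. The log2 fold change stayed between 0.43 and 0.50 when any library was left out. The adjusted p in these edgeR fits ran from 0.140 without WT 3 to 0.958 without IL-33 KO 1.

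Prostasin is a glycosylphosphatidylinositol-anchored serine protease that acts together with matriptase. Prss8 (mm10 chr7:127925725-127930113, minus strand) had 50.3, 59.0 and 42.0 CPM in the IL-33 KO libraries, against 67.9, 66.5 and 39.5 CPM in the WT libraries. WT 3 was the lowest of the 6, the genotypes overlapped, and the log2 fold change was -0.20 (95% interval -0.72 to 0.32, adjusted p 0.790 in edgeR). The ratio of St14 to Prss8 in FPKM was 1.88, 1.47 and 2.05 in IL-33 KO 1, 2 and 3, against 0.959, 0.973 and 1.59 in WT 1, 2 and 3, so WT 3 lay above IL-33 KO 2. Prss8 overlaps Kat8 on the other strand, and the sources used here do not say how strand was treated. Kat8 had 255 to 289 counts per library, against 868 to 1522 for Prss8.

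Among the peptidylarginine deiminases, type I acts in the epidermis and type III, encoded by Padi3, mainly in the hair follicle. Padi1 (mm10 chr4:140812983-140845778, minus strand) had 55.9, 34.1 and 17.9 CPM in IL-33 KO 1, 2 and 3, against 13.1, 14.9 and 17.3 CPM in WT 1, 2 and 3. IL-33 KO 1 and 2 were well above the WT libraries, while IL-33 KO 3 exceeded WT 3 only by a small margin (4.830 against 4.825 in FPKM). The mean was 35.99 ± 19.1 CPM in IL-33 KO and 15.1 ± 2.13 CPM in WT (SD, n = 3 each), 2.38-fold (95% interval 1.34 to 4.24), with a log2 fold change of 1.25 ± 0.36 (SE, unadjusted p 0.00837 and adjusted p 0.440 in edgeR). In DESeq2 the adjusted p was 0.0315. Without IL-33 KO 1 the log2 fold change was 0.79 (adjusted p 0.958 in edgeR), and without IL-33 KO 3 it was 1.57 (0.182).

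The inner root sheath is the layer that moulds the growing hair, and 0 of its 8 listed genes passed an adjusted p of 0.05 in edgeR. The 8 keratin and trichohyalin genes of that list summed to 20648, 10231 and 9734 CPM in IL-33 KO 1, 2 and 3, against 3462, 2525 and 5410 CPM in WT 1, 2 and 3, and 8 of 8 were without overlap on the higher side, against 7.46% of all tested genes. IL-33 KO 1 was highest and WT 3 the highest of WT for this sum as for Padi1, but WT 1 and WT 2 stood in the other order, and IL-33 KO 3 lay near WT 3 for Padi1 and well above it for the sum. No marker of the list was at 0 in all libraries, and its part in the Padi1 result was not tested. For St14, the IL-33 KO libraries stood in the same order as this sum, while WT 3 was lowest for St14 and highest of WT for the sum. The part of the list in the St14 result was not tested either. The next gene on chromosome 4, Padi3, ends 2.3 kb from Padi1 and had 308, 145 and 153 CPM in the IL-33 KO libraries, against 46.6, 26.8 and 82.0 CPM in the WT libraries (log2 fold change 1.96 ± 0.44 SE, adjusted p 0.329 in edgeR). Padi4, a deiminase best known in neutrophils, had 41.3 ± 9.74 CPM in IL-33 KO and 36.5 ± 3.75 CPM in WT (adjusted p 0.762 in edgeR). Padi2 overlapped at 4.55 ± 1.85 CPM in IL-33 KO and 4.98 ± 1.60 CPM in WT, and Padi6 was filtered out for low counts.

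Envoplakin and periplakin form heterodimers that link desmosomes and keratin filaments to the envelope. Evpl (mm10 chr11:116220559-116238077, minus strand) had 367, 478 and 406 CPM in IL-33 KO 1, 2 and 3, against 424, 386 and 315 CPM in WT 1, 2 and 3. The libraries overlapped, and the log2 fold change was 0.15 (95% interval -0.23 to 0.54, adjusted p 0.786 in edgeR). Ppl (mm10 chr16:5086291-5132481, minus strand) had 461, 581 and 430 CPM in the IL-33 KO libraries, against 566, 480 and 406 CPM in the WT libraries. The groups covered nearly the same range, and the log2 fold change was 0.019 (95% interval -0.40 to 0.44, adjusted p 0.978 in edgeR), which was -0.12 without IL-33 KO 2 and -0.094 without WT 3. As folds of IL-33 KO over WT, these intervals run from 0.851 to 1.45 for Evpl and from 0.759 to 1.35 for Ppl. The ratio of Evpl to Ppl in FPKM was 0.782, 0.810 and 0.929 in the IL-33 KO libraries, against 0.737, 0.791 and 0.761 in the WT libraries.

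**Figure D3:**
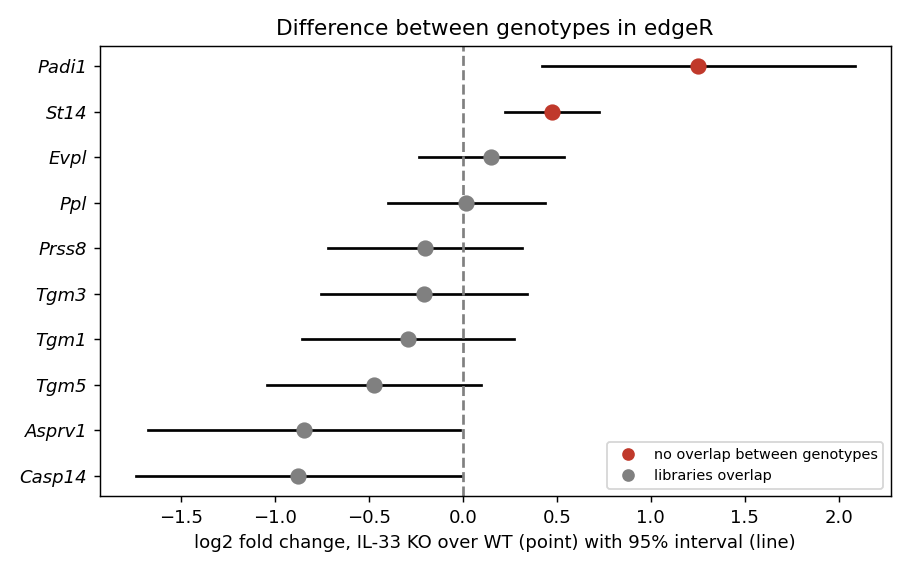
Log2 fold change of IL-33 KO over WT in edgeR for the 10 genes (points) with its 95% interval (lines), red where every IL-33 KO library was above every WT library. Values run from -0.87 for Casp14 to 1.25 for Padi1, and the intervals of 6 genes include 0.

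Casp14 and Asprv1 together held 69.8%, 77.4% and 75.1% of the summed FPKM of the 10 genes in IL-33 KO 1, 2 and 3, against 82.5%, 87.7% and 78.0% in WT 1, 2 and 3. All 3 IL-33 KO shares were below the WT shares, with IL-33 KO 2 and WT 3 the closest pair. Casp14 and Asprv1 had the lowest fold changes of the 10 genes, so their lower share is no separate result. Each of these genes alone overlapped between the genotypes. Relative to Krt1 and Krt10, whose own log2 fold changes were -0.53 and -0.42, 2 of the 10 genes were without overlap on the higher side, against 3.97% of all tested genes, and 0 of 10 on the lower side, against 0.0954%. These were St14 (log2 difference 1.03, and 0.54 without IL-33 KO 1) and Evpl (0.71, and 0.36 without IL-33 KO 1). Evpl overlapped in CPM, and Padi1, which did not overlap in CPM, overlapped on this scale, with -8.88 in IL-33 KO 3 and -8.64 in WT 3. These ratios were chosen with earlier results known and are descriptions without a test.

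The rest of the pathway was read from 8 lists with 97 symbols, none of whose genes passed an adjusted p of 0.05 in edgeR. Of all tested genes, 52% had a log2 fold change below 0, and the median was -0.01. The other transglutaminases were above 0 in log2 fold change in 4 of 4 tested genes, with a median of 0.33. Tgm6, which lies 62.0 kb from Tgm3 on chromosome 2, had 55.8, 25.4 and 21.0 CPM in the IL-33 KO libraries, against 12.4, 8.78 and 18.7 CPM in the WT libraries (adjusted p 0.452 in edgeR). Its neighbour Tgm3 thus overlapped between the genotypes where Tgm6 did not. Tgm2, the widely expressed tissue transglutaminase, had 38.9 ± 4.34 CPM in IL-33 KO and 29.8 ± 10.05 CPM in WT (adjusted p 0.629 in edgeR). Tgm7, beside Tgm5, was filtered out for low counts. The other plakins were above 0 in 4 of 4 tested genes with a median of 0.13, including the cytolinker gene Plec (369 ± 29.0 CPM in IL-33 KO, 318 ± 37.2 CPM in WT) and the spectraplakin gene Macf1 (370.2 ± 25.7 CPM in IL-33 KO, 334 ± 54.3 CPM in WT).

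The listed envelope substrates were lower in mean level in IL-33 KO. Trichohyalin (Tchh), a substrate in the hair follicle, was placed in the inner root sheath list and went the other way. It had 6222 ± 2821 CPM in IL-33 KO and 1728 ± 825 CPM in WT (adjusted p 0.356 in edgeR). All 33 tested envelope substrates had a log2 fold change below 0, against 52% of all tested genes, with a median of -0.84. An unadjusted p under 0.05 in edgeR in that direction was found for 9 of them, against 4.15% of all tested genes. On the lower side 0 of 33 were without overlap, against 6.47%. The late cornified envelope gene Lce1c had 49.2, 108 and 70.2 CPM in the IL-33 KO libraries, against 222, 224 and 94.4 CPM in the WT libraries (adjusted p 0.461 in edgeR). WT 3 again lay within the IL-33 KO range, as for Casp14 and Asprv1. Lce1b had 91.6 ± 35.3 CPM in IL-33 KO and 214 ± 94.4 CPM in WT (adjusted p 0.473 in edgeR). Lce1 genes are close copies of each other, and how reads were divided among them is uncertain. Many of these substrate genes lie in the epidermal differentiation complex, and they share their libraries and cell type with Casp14 and Asprv1, so their common direction is not independent of that pair.

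Of the 16 other epidermal proteases tested, 14 were below 0 with a median of -0.38, against 52% of all tested genes below 0. Klk11, a kallikrein-related peptidase, had 30.3 ± 7.19 CPM in IL-33 KO and 55.6 ± 16.6 CPM in WT (adjusted p 0.444 in edgeR). Klk14, a trypsin-like kallikrein of the stratum corneum, had 7.08, 7.38 and 6.29 CPM in the IL-33 KO libraries, against 21.6, 43.5 and 6.86 CPM in the WT libraries (adjusted p 0.465 in edgeR), so WT 3 did not stand apart from IL-33 KO. The inhibitors and targets of matriptase and prostasin were below 0 in 6 of 7 genes, against the same 52%, with a median of -0.19. Among them the sodium channel subunit genes Scnn1a and Scnn1g had 38.4 ± 6.74 and 11.3 ± 1.91 CPM in IL-33 KO, against 51.1 ± 13.1 and 16.05 ± 5.82 CPM in WT (adjusted p 0.602 and 0.605 in edgeR). Of the 7, 0 were without overlap on the higher side, the direction of St14, against 7.46% of all tested genes.

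The enzymes that build the lipid envelope were below 0 in 10 of 10 genes, against 52% of all tested genes, with a median of -0.32. Alox12b and Aloxe3, lipoxygenases that act on linoleate ceramides in sequence, had 41.6 ± 15.5 and 23.1 ± 7.18 CPM in IL-33 KO, against 85.4 ± 37.4 and 38.2 ± 14.2 CPM in WT (adjusted p 0.527 and 0.564 in edgeR). The transcription factors of cornification were split, with 7 above and 9 below 0 among 16 and a median of -0.02. Gata3, a factor of both epidermis and inner root sheath, had 97.6, 104 and 120 CPM in the IL-33 KO libraries, against 50.7, 72.4 and 67.1 CPM in the WT libraries (adjusted p 0.302 in edgeR). Grhl3, a Grainyhead-like regulator known to control Tgm1, had 71.3 ± 15.1 CPM in IL-33 KO and 108 ± 41.5 CPM in WT (adjusted p 0.578 in edgeR).

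**Figure D4:**
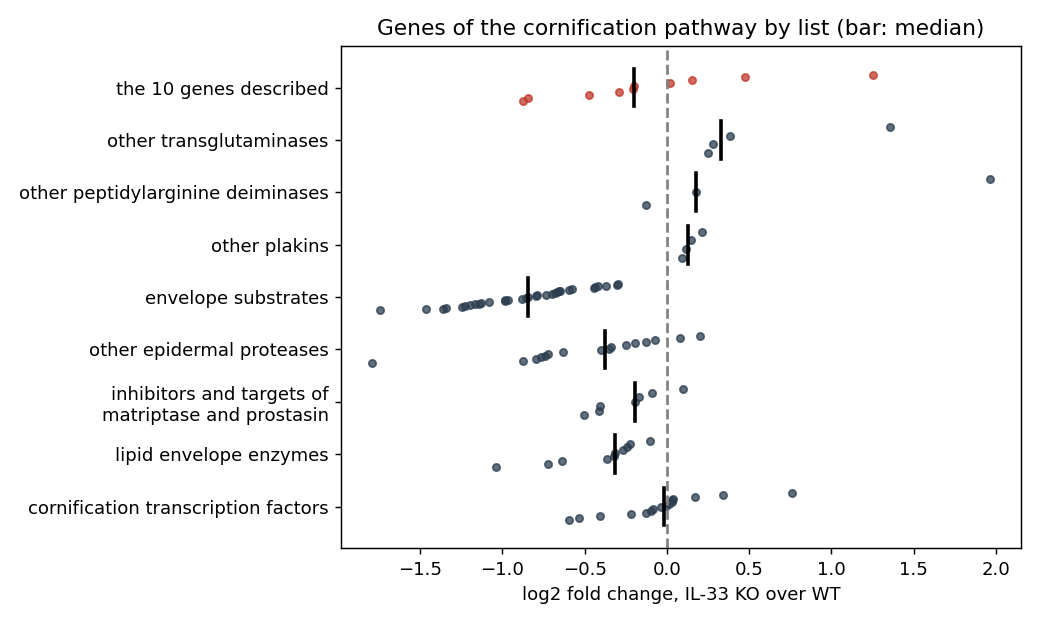
Log2 fold change of IL-33 KO over WT for each tested gene, in rows for the 10 genes described (red) and the 8 pathway lists (dark), with the median of each row as a black bar. The 33 envelope substrates all lie below 0 around a median of -0.84, whereas the 10 genes spread from -0.87 to 1.25.

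The total count was 20459574 to 24359612 per library. Il33 itself averaged 0.782 ± 0.217 CPM over the 3 IL-33 KO libraries and 147.6 ± 44.3 CPM over the 3 WT libraries, in the direction of the labels. Keratinocyte markers were abundant, as the epithelial label names, with Krt5 averaging 8919 ± 987 CPM (IL-33 KO) and 10381.5 ± 1754 CPM (WT) and Krt6a, a keratin of wounded epidermis, 8318 ± 1906 CPM (IL-33 KO) and 11137 ± 3661 CPM (WT). Markers of other cell types were present too. The hair shaft list summed to 2228 to 3944 CPM in IL-33 KO and 384 to 1778 CPM in WT, the adipocyte list to 643 to 873 CPM in IL-33 KO and 152 to 649 CPM in WT, and the melanocyte list to 125 to 269 CPM in IL-33 KO and 70.5 to 136 CPM in WT. The skeletal muscle list summed to 114, 7.04 and 240 CPM in IL-33 KO 1, 2 and 3, against 4.38 to 5.17 CPM in WT. The fibroblast list summed to 11716 to 13742 CPM in IL-33 KO and 12432 to 22468 CPM in WT, where WT 3 was highest. The adipocyte, melanocyte, fibroblast, sebaceous gland, endothelial and leukocyte sums overlapped between the genotypes, and those of hair shaft and skeletal muscle did not. The part of these cell types in the results above was not tested.

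For each of the 10 genes, the gene with the most similar log2 CPM over the 6 libraries was sought among 9945 genes with a mean of at least 10 CPM. Casp14 and Asprv1 had the same nearest gene, Pex14, a peroxisomal membrane protein gene, with Pearson r of 0.997 and 0.996 over 6 libraries. The nearest gene was Fgfbp3 for St14 (0.982), and Fgfbp3 is among the 3 genes that passed in edgeR over all genes. For Padi1 it was Ttc7b (0.992), for Tgm1 Sbno2 (0.997), for Tgm3 Plk3 (0.993) and for Tgm5 Rapgefl1 (0.994). For Prss8 it was Eps8l2 (0.993), for Evpl Usp7 (0.983) and for Ppl Osbpl2 (0.988). The nearest gene of each of the 10 had a value of at least 0.982, with 6 libraries in 2 genotypes and 9945 candidates, so these values describe likeness alone.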

How the data were processed

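RNA-seq values of 6 libraries were used, 3 IL-33 KO and 3 WT, grouped and numbered by the sample titles. The authors deposited read counts and FPKM values for 35275 genes. The submitters' processing notes name STAR, RSEM and the mm10 build, with no versions. The deposited counts are whole numbers and entered the tests as they stand. The authors' FPKM values equal count per listed gene length and column total within a relative difference of 2.782e-07. The main test was that of edgeR 4.0.16 in R 4.3.3 (filterByExpr, TMM, quasi-likelihood F test, two-sided, Benjamini-Hochberg adjustment over 15720 genes, threshold 0.05). Intervals are 95%. Alternatives used DESeq2 1.42.0, limma 3.58.1 (voom, and log2(FPKM + 1) or log2(FPKM + 0.1)), other size factors and filters, the replicate number as a block, and each library left out. Every pair of libraries differed beyond sampling noise (chi-square per degree of freedom at least 31.7). For WT 3 this value was 100.1 against WT 1 and 89.6 against WT 2. Against IL-33 KO 1, 2 and 3 it was 53.9, 33.2 and 45.1. By this measure over all genes, WT 3 was thus nearer to the IL-33 KO libraries than to the other WT libraries. The cause of this likeness was not tested.

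The genes and lists were chosen with earlier results of these data known. Genes were named by rule: Il33, the 10 genes, in each pathway list the 2 with the smallest p, the most similar gene of each, and the first of each marker list, of which those that bear on a result are given. Of 173 list symbols 171 were matched. Coordinates are those of the deposited table (mm10); upstream sequences are from RefSeq. Figures were drawn with matplotlib 3.10.9.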

Additional observations from a re-analysis of the deposited data

How the results depend on the processing

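The count of genes past the threshold, 3 in edgeR, was 5 with upper quartile factors, total counts or a CPM of at least 1 in 3 libraries, 33 without a filter, 233 in DESeq2 and 11 in limma-voom. It was 15 with log2(FPKM + 1), 11 with log2(FPKM + 0.1), 22 with unfiltered log2(FPKM + 1), and 2 to 24 when a library was left out. Of the 10 genes, 0 passed in edgeR and in each alternative but DESeq2. There 2 did, St14 and Padi1, against 1.26% of its tested genes. The number at an unadjusted p under 0.05 was 4 in edgeR. It was 8 without WT 3 (2 higher, 6 lower, against 17.2% of all tested genes). Leaving out IL-33 KO 1 or 3 gave 2, St14 and Padi1, against 4.49% and 9.54% of all tested genes. Leaving out WT 1 or 2 gave the same 2 genes, against 7% and 5.88%. Without IL-33 KO 2 the number was 5, with Tgm5 added, against 6.96%. Casp14 and Asprv1 were above 0.05 in limma-voom (p 0.0679 and 0.0576) and in the 3 FPKM fits. Casp14 alone was above it in robust edgeR (p 0.0619) and with a CPM of at least 1 (p 0.0506). Padi1 was above it in the unfiltered FPKM fit (p 0.0662). Direction was kept in all 18 alternatives for 8 of the 10 genes. Tgm3 turned to 0.064 without WT 1, in a range of -0.44 to 0.064 over the left-out libraries. Ppl turned to -0.12 without IL-33 KO 2 and -0.094 without WT 3, in a range of -0.12 to 0.15. The cause was not tested. Their median log2 fold change ran from -0.43 to 0.02 when a library was left out.

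Same-numbered libraries were not more alike than others. Their deviations from the genotype mean correlated at -0.26, -0.12 and -0.38 for numbers 1, 2 and 3. For libraries of different numbers the values ran from -0.037 to 0.28. Centring within groups of 3 ties these values to each other, so they cannot settle whether the libraries were paired. With the replicate number as a block, 2 genes passed, 0 of them among the 10. At an unadjusted p under 0.05 in that edgeR fit there were 3 of the 10 (Tgm5, St14 and Padi1), against 5.28% of all tested genes.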
